A study of Caenorhabditis elegans with 32 samples.

Results

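The transcripts of 40 enzyme genes of central carbon metabolism were followed in whole Caenorhabditis elegans of 8 groups. A list of named enzymes by pathway step was chosen with earlier results of these data known. The genes were taken from this list, and not by their measured values, out of 46589 genes in the count table. They hold 4 genes of the hexokinase and isomerase steps, 5 of the phosphofructokinase, aldolase and triose phosphate isomerase steps, 4 of glyceraldehyde phosphate dehydrogenase (GAPDH) and 6 of lower glycolysis with lactate dehydrogenase. The others are 3 genes of gluconeogenesis, 3 of the pentose phosphate pathway, 14 of the tricarboxylic acid (TCA) cycle and its cytosolic counterparts and 1 of the glyoxylate shunt. All 40 passed the filter on low counts in each comparison, and 39 of them had at least 100 counts in every library. The exception was *pfk-1.2*, with 50 counts in its lowest library.

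Glycolysis splits glucose into pyruvate, and gluconeogenesis runs the same route backwards with enzymes of its own at the irreversible steps, among them phosphoenolpyruvate carboxykinase (PEPCK) and fructose bisphosphatase. The pentose phosphate pathway branches off at the start to make NADPH and ribose, while the TCA cycle oxidizes acetyl units in mitochondria. Nematodes also run the glyoxylate shunt, in which a single protein, ICL-1, carries isocitrate lyase and malate synthase and lets carbon from fat be built into sugar.

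The study asked how overexpression of *pgph-2*, which encodes a glycerol 3-phosphate phosphatase, changes animals exposed to excess glucose, and which of these changes need *hlh-30*, the gene of the worm's TFEB-like transcription factor. WT animals (N2 Bristol), *pgph-2 o/e* animals, *hlh-30*(tm1978) animals and animals with both changes, labelled *pgph-2 o/e; hlh-30* and here called the double mutant, were each grown on normal growth medium (NGM) or on NGM with 2% glucose (here "on glucose"). The overexpressing animals carry *pgph-2* under its own promoter region in a plasmid with an mCherry marker injected beside it, as 1 line integrated by UV. No group is labelled as carrying the marker alone. The marker, the integration and *pgph-2* therefore cannot be told apart in comparisons with WT. Animals were synchronized by bleaching and collected at the stage labelled L4/young adult, and mRNA was selected on poly-T beads from whole-animal extracts. Each group has 4 libraries, which the methods call biological replicates. The labels do not say that they came from separate cultures, so the P-values measure the spread between these libraries, which may be technical in part. In whole animals, fewer cells of a type and less RNA per cell cannot be told apart.

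The libraries held 16750042 to 29794842 counts, of which the 40 genes took 1.22 to 1.77%. Levels are given as CPM, counts scaled to the library size after TMM normalization, and as FPKM, the same per kilobase of gene length, where genes are compared with each other. On NGM, *pgph-2* was at 29.9 to 43.4 CPM in WT against 60.02 to 86.9 CPM in *pgph-2 o/e*, and *hlh-30* at 86.1 to 105 CPM in WT and 50.7 to 61.4 CPM in *hlh-30* animals. On glucose, *pgph-2* was at 62.3 to 74.4 CPM in WT against 108 to 145 CPM in *pgph-2 o/e*, and *hlh-30* at 85.5 to 115 CPM in WT and 59.03 to 81.2 CPM in *hlh-30* animals. In *hlh-30* animals *pgph-2* was at 24.7 to 62.2 CPM on NGM and 28.8 to 43.9 CPM on glucose. In the double mutant *pgph-2* was at 106 to 137 CPM on NGM and 73.7 to 90.5 CPM on glucose, and *hlh-30* at 40.4 to 56.2 and 64.2 to 74.4 CPM. The tm1978 allele is a deletion, and counts per gene do not show which part of the gene the reads came from. One library stood apart from its group. In *pgph-2 o/e* NGM replicate 1, 36 of the 40 genes were at the highest of their 4 values, and the summed level of all 40 was 22804 CPM against 14102 to 15813 CPM in the other 3 libraries. Its share of the raw counts was 1.77%, and its TMM factor was 0.778, where the other 31 libraries ranged from 0.931 to 1.09. Counts of calls that involve this group are therefore also given without it. WT NGM replicate 1 held the lowest of 4 values for 32 genes, and WT glucose replicate 2 for 35.

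Per unit of length, citrate synthase *cts-1* was the most abundant of the 40 transcripts, with a median over the 32 libraries of 676 FPKM (range 530.3 to 1188). It was followed by *gpd-3* (GAPDH) at 604 FPKM (range 427 to 855), aldolase *aldo-2* at 603 FPKM (range 433 to 1118) and enolase *enol-1* at 517 FPKM (range 424 to 793). At the low end stood *gpd-1* at 15.7 FPKM (range 8.60 to 53.7), *gpd-4* at 15.03 FPKM (range 11.2 to 40.9) and the phosphofructokinase *pfk-1.2* at 5.41 FPKM (range 0.927 to 11.3). The ranges of the first 4 genes overlapped, so their order is not settled by these libraries.

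**Figure D1:**
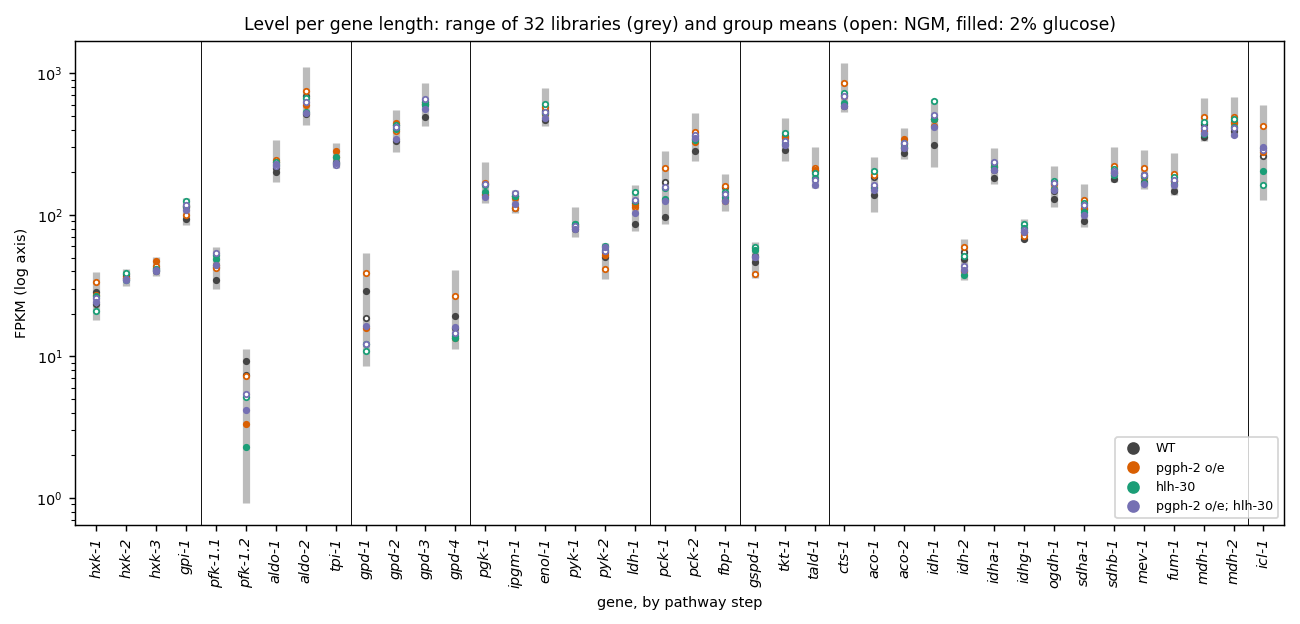
Level of each of the 40 transcripts in FPKM on a log axis, ordered by pathway step. Grey bars span the 32 libraries, and circles are the means of the 8 groups (open, NGM and filled, glucose). The medians run from 5.41 FPKM for *pfk-1.2* to 676 FPKM for *cts-1*.

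For steps served by several of the 40 genes, the share of each gene in their summed FPKM was taken. Of the FPKM of the 4 GAPDH genes, *gpd-3* took a median of 57.5% (range 55.5 to 60.9%) and *gpd-2* 38.7% (range 34.3 to 41.3%), while *gpd-1* took 1.48% (range 0.883 to 4.96%) and *gpd-4* 1.37% (range 1.05 to 3.16%). The pair *gpd-1* and *gpd-4* (chromosome II) and the pair *gpd-2* and *gpd-3*, neighbours on chromosome X, are near-identical copies, so reads may have been split between the copies and the values of each single gene are uncertain. For phosphofructokinase, *pfk-1.1* took 90.2% (range 72.7 to 98.01%) and *pfk-1.2* the rest. Among the aldolases, *aldo-2* took 72.8% (range 67.3 to 78.1%), and of the PEPCK genes *pck-1* and *pck-2*, the latter took 70.4% (range 63.7 to 77.1%). The pyruvate kinases were closer, with 60.5% (range 55.6 to 76.4%) for *pyk-1*. The 3 hexokinase genes had median shares of 25.1% (*hxk-1*), 34.9% (*hxk-2*) and 40.5% (*hxk-3*).

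Most of the 40 transcripts varied little between groups. The highest and lowest group means lay within 1.5-fold for 29 genes and were more than 2-fold apart for 5. These were *pfk-1.2* (4.09-fold), *gpd-1* (3.56-fold), *icl-1* (2.61-fold), the PEPCK gene *pck-1* (2.21-fold) and the cytosolic NADP-dependent isocitrate dehydrogenase *idh-1* (2.07-fold). The least variable was the pyruvate kinase *pyk-1*, at 1.08-fold. In what follows a gene is said to have risen or fallen where its adjusted P was at most 0.05 in the quasi-likelihood test of edgeR, adjusted after Benjamini and Hochberg over all genes of the comparison, and all adjusted P-values are of this kind unless another tool is named. Over 10 comparisons of 2 groups, 86 of 400 tests of these genes passed. The share of all genes called ran from 3.61% to 45.1% between comparisons, and a pooled share was not computed. Of the 40 genes, 34 passed at least once. The 6 that never did were *hxk-2*, *hxk-3*, *aldo-1*, *pyk-1*, *pck-2* and *sdhb-1*, a subunit of succinate dehydrogenase. The gene called most often was *gpd-1*, in 7 of the 10. Where 4 libraries do not overlap 4 others, the two-sided exact permutation test over 70 relabellings gives 0.0286, the smallest P it can reach. Each comparison was also fitted without each of its 8 libraries in turn. Where this ended a call, the libraries and the highest adjusted P over these fits stand behind the call. A call among the 40 genes with no such remark was kept in all 8 fits. Where library totals in place of TMM factors ended a call, their adjusted P stands there too.

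Markers of other cell types moved with the groups. The summed level of 51 sperm genes was 1297 to 2243 CPM in WT on NGM, 2594 to 4284 CPM in *pgph-2 o/e* on NGM and 267 to 681 CPM in *pgph-2 o/e* on glucose. It was 1685 to 3558 CPM in WT on glucose, 335 to 1048 and 109 to 782 CPM in *hlh-30* on NGM and glucose, and 561 to 1028 and 803 to 1242 CPM in the double mutant. Of these 51 genes, 49 passed the filter in each of the 3 comparisons that follow. In *pgph-2 o/e* relative to WT, 47 fell on glucose and 29 rose on NGM (22% and 4.37% of all genes). In *hlh-30* compared to WT on glucose, 46 fell (23.7% of all genes). The 21 oocyte and embryo genes summed to 1093 to 1817 CPM in *pgph-2 o/e* on NGM and to 359 to 428 CPM in the same animals on glucose. Hypodermis genes (8) summed to 3907 to 4677 CPM in WT on glucose and 1595 to 2443 CPM in *pgph-2 o/e* on glucose, and body wall muscle genes (8) to 13628 to 15079.5 CPM in WT and 9784 to 10691 CPM in *hlh-30* on NGM. Pharynx genes (5) summed to 772 to 1165 CPM in WT on glucose and 1457 to 1775 CPM in *pgph-2 o/e* on glucose. The 8 intestine genes summed to 6257 to 7435 CPM in WT on glucose against 8342 to 9405 CPM in *pgph-2 o/e* on the same medium, and 7 of 8 rose in that comparison (19.5% of all genes). On NGM they summed to 6898 to 9537 CPM in WT against 7910.1 to 13669.5 CPM in *pgph-2 o/e*. The 7 neuron genes summed to 273 to 286 CPM in *pgph-2 o/e* on NGM and 319.8 to 369.8 CPM in the same animals on glucose. A mean sperm gene level per library was entered as a covariate in a fit to all 32 libraries, and it kept 21 of 117 named calls. Its values are given for changes between 2 groups that it moved by over 1.5 times. The covariate follows the groups, so the part of either in a change cannot be told apart.

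**Figure D2:**
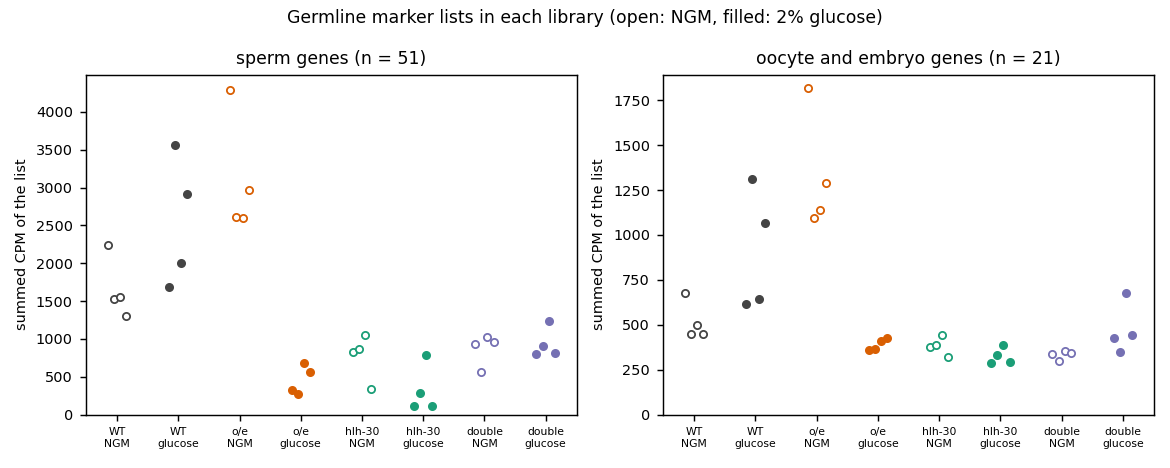
Summed CPM of 51 sperm genes (left) and 21 oocyte and embryo genes (right) in each of the 32 libraries (open, NGM and filled, glucose). The 4 libraries of *pgph-2 o/e* on NGM lie at 2594 to 4284 CPM for the sperm genes, and those of the same animals on glucose at 267 to 681 CPM.

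Overexpression of *pgph-2* was first compared with WT. On NGM, 2 of the 40 genes rose and 2 fell, with 6.9% of all genes tested called in this comparison (higher 4.37%, lower 2.53%). The genes were *gpd-1* and *hxk-1*, which rose, and the oxidative pentose phosphate enzyme *gspd-1* and the pyruvate kinase *pyk-2*, which fell. The median log2 fold change of the 40 was 0.066, against 0.0027 over all genes. On glucose, 14 genes rose and 4 fell, where 19.5% of all genes tested were higher and 22% lower (41.5% called). The share of the 40 that rose (35%) was thus above that of all genes and the share that fell (10%) below it. The number that rose depended on single libraries. There were 5 rises without WT glucose replicate 4, 6 without WT glucose replicate 2 and 7 without *pgph-2 o/e* glucose replicate 3 or 4, with 4 falls in each of these fits, for which the shares of all genes were not computed. The median log2 fold change of the 40 on glucose was 0.16, against 0.02. The libraries of the 2 groups did not overlap for 19 of the 40 genes, and for 42.1% of all genes. On NGM the count of calls was 1 without WT NGM replicate 2 or 4 and 2 without *pgph-2 o/e* NGM replicate 4, with 5 without *pgph-2 o/e* NGM replicate 1. On glucose it was 9 without WT glucose replicate 4, 10 without WT glucose replicate 2 and 11 without *pgph-2 o/e* glucose replicate 3 or 4. With library totals in place of TMM factors, 2 rose and 1 fell on NGM, and 9 rose and 4 fell on glucose. With the sperm covariate, 0 genes were called on glucose (11 at an unadjusted P under 0.05 in that edgeR fit, while DESeq2 without the covariate called 16).

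Loss of *hlh-30* was compared with WT next. On glucose these groups also differed in *pgph-2*, at 28.8 to 43.9 CPM in *hlh-30* against 62.3 to 74.4 CPM in WT. Any part of the *pgph-2* level in that comparison was not tested. On NGM no gene rose and 2 fell, *gpd-1* and *icl-1*, with 15.2% of all genes called (6.08% higher, 9.08% lower). At an unadjusted P under 0.05 edgeR had 7 genes higher and 4 lower, and DESeq2 called 2 higher and 2 lower. On glucose, 10 genes rose and 5 fell (21.4% and 23.7% of all genes). Those that fell were *pfk-1.2*, *gpd-1*, *gpd-4*, *icl-1* and the mitochondrial isocitrate dehydrogenase *idh-2*. The median of the 40 was 0.11 on the log2 scale, with 0.016 over all genes, and the libraries did not overlap for 21 of the 40 genes, and for 45.1% of all genes. The count was 1 without *hlh-30* NGM replicate 1 or 2 or WT NGM replicate 2 or 3 on NGM, and 9 without *hlh-30* glucose replicate 2 on glucose. Library totals gave 2 higher and 2 lower on NGM, and 8 and 6 on glucose. Once more with the sperm covariate, 0 genes were called on glucose (7 at an unadjusted P under 0.05 in edgeR, and 13 by DESeq2 without the covariate).

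The double mutant was compared with *pgph-2 o/e* to ask what loss of *hlh-30* changes under overexpression. The 2 groups also differed in *pgph-2* itself. It was at 106 to 137 CPM in the double mutant against 60.02 to 86.9 CPM in *pgph-2 o/e* on NGM, and at 73.7 to 90.5 against 108 to 145 CPM on glucose. The level of overexpression and loss of *hlh-30* therefore cannot be told apart here. On NGM, 3 genes rose (*ipgm-1*, *pyk-2* and *gspd-1*) and 5 fell (*hxk-1*, *gpd-1*, *gpd-4*, *pck-1* and *idh-2*), with 42.4% of all genes called (19.8% higher, 22.6% lower). Without *pgph-2 o/e* NGM replicate 1, the count was 21, of which 15 were higher and 6 lower. On glucose, no gene rose and 6 fell, with 13.2% of all genes called (6.19% higher, 7.05% lower). They were *tpi-1*, *gpd-2*, *tald-1*, *cts-1*, the mitochondrial aconitase *aco-2* and *mdh-2*. At an unadjusted P under 0.05, edgeR had 1 gene higher and 12 lower, and DESeq2 called 0 and 7. In this comparison the direction rested on the scaling. Library totals shifted the log2 fold changes by a median of 0.11 relative to TMM and gave 2 genes higher and 2 lower, with 6 and 6 on NGM. The count on glucose was 2 without double mutant glucose replicate 4 and 3 without double mutant glucose replicate 1 or 3 or *pgph-2 o/e* glucose replicate 2 or 4.

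With growth on glucose, more of the 40 genes fell than rose in every genotype, but in *pgph-2 o/e* this turned without *pgph-2 o/e* NGM replicate 1, with 10 higher and 7 lower. In WT no gene rose and 3 fell, *pck-1*, *ldh-1* and *mdh-1*, with 3.61% of all genes called (1.19% higher, 2.42% lower). In *pgph-2 o/e*, 2 rose (*gspd-1* and *pyk-2*) and 8 fell, with 38.8% of all genes called (17.3% higher, 21.5% lower). There the share of the 40 that fell (20%) was close to that of all genes, and the share that rose (5%) was below it. In *hlh-30* animals no gene rose and 11 fell, where 5.41% of all genes were lower and 7.55% higher. Double mutant animals had 1 rise and 8 falls (6.05% and 5.13% of all genes). The fold changes lay below 0 for 33, 26, 34 and 33 of 40 genes in WT, overexpressing, *hlh-30* and double mutant animals, with medians of -0.20, -0.15, -0.12 and -0.13 on the log2 scale. The medians over all genes tested were 0.014, 0.0067, -0.0039 and 0.0072.

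These counts moved with single libraries. In WT, 26 genes were lower and 2 higher at an unadjusted P under 0.05 in edgeR, and DESeq2 called 13 lower and 1 higher. Its count was 1 without WT glucose replicate 2, 3 or 4 or WT NGM replicate 2, 3 or 4, 6 without WT glucose replicate 1 and 18 without WT NGM replicate 1. The count for *pgph-2 o/e* was 6 without *pgph-2 o/e* glucose replicate 1, 2 or 3 and 17 without *pgph-2 o/e* NGM replicate 1, of which more were then higher than lower, as given above. In *hlh-30* animals edgeR had 1 gene higher at an unadjusted P under 0.05 and DESeq2 called 0 higher and 12 lower, and the count was 3 without *hlh-30* glucose replicate 1 or 4 or *hlh-30* NGM replicate 2, 4 without *hlh-30* NGM replicate 3 and 5 without *hlh-30* NGM replicate 1. The count for the double mutant was 1 without double mutant glucose replicate 4, 3 without double mutant NGM replicate 4, 4 without double mutant NGM replicate 3, 5 without double mutant glucose replicate 1 and 18 without double mutant glucose replicate 2. Library totals left more genes lower than higher in all 4 genotypes, with 3, 11, 11 and 6 lower calls in the same order. The sperm covariate left 10 calls in WT, 2 in *pgph-2 o/e*, 2 in *hlh-30* and 0 in the double mutant. In that last fit edgeR had 11 at an unadjusted P under 0.05, and DESeq2 called 15 without the covariate.

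**Figure D3:**
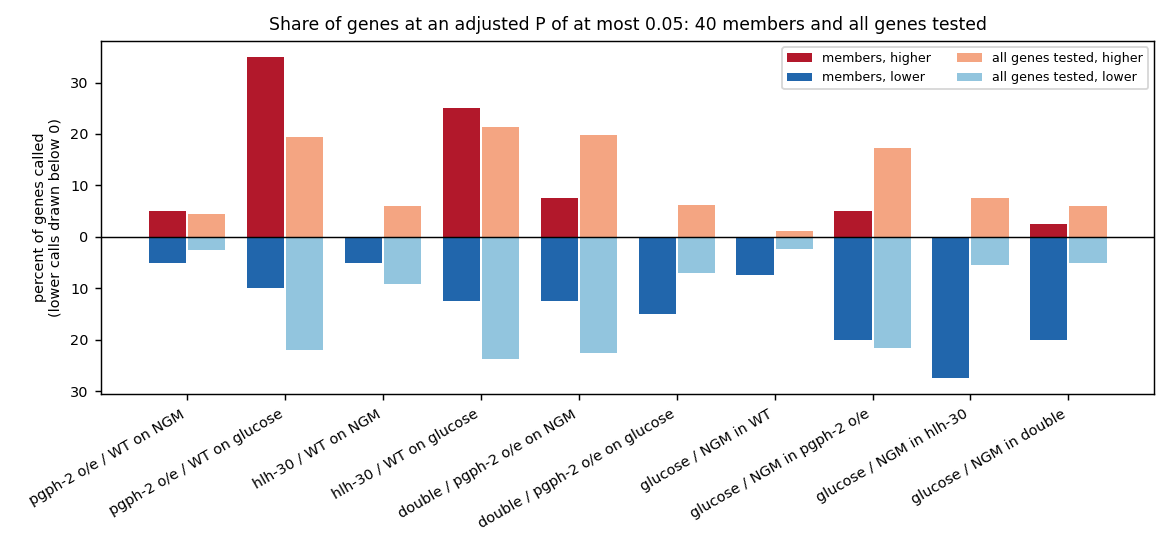
Percent of the 40 genes (dark bars) and of all genes tested (pale bars) called higher (above 0) or lower (below 0) in each of the 10 comparisons of 2 groups. Calls of the 40 exceed those of all genes in the lower direction on glucose in *hlh-30* animals, 27.5% against 5.41%. The count of calls in that comparison, 11 of 40, ran from 3 to 14 over fits that left out 1 library.

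**Figure D4:**
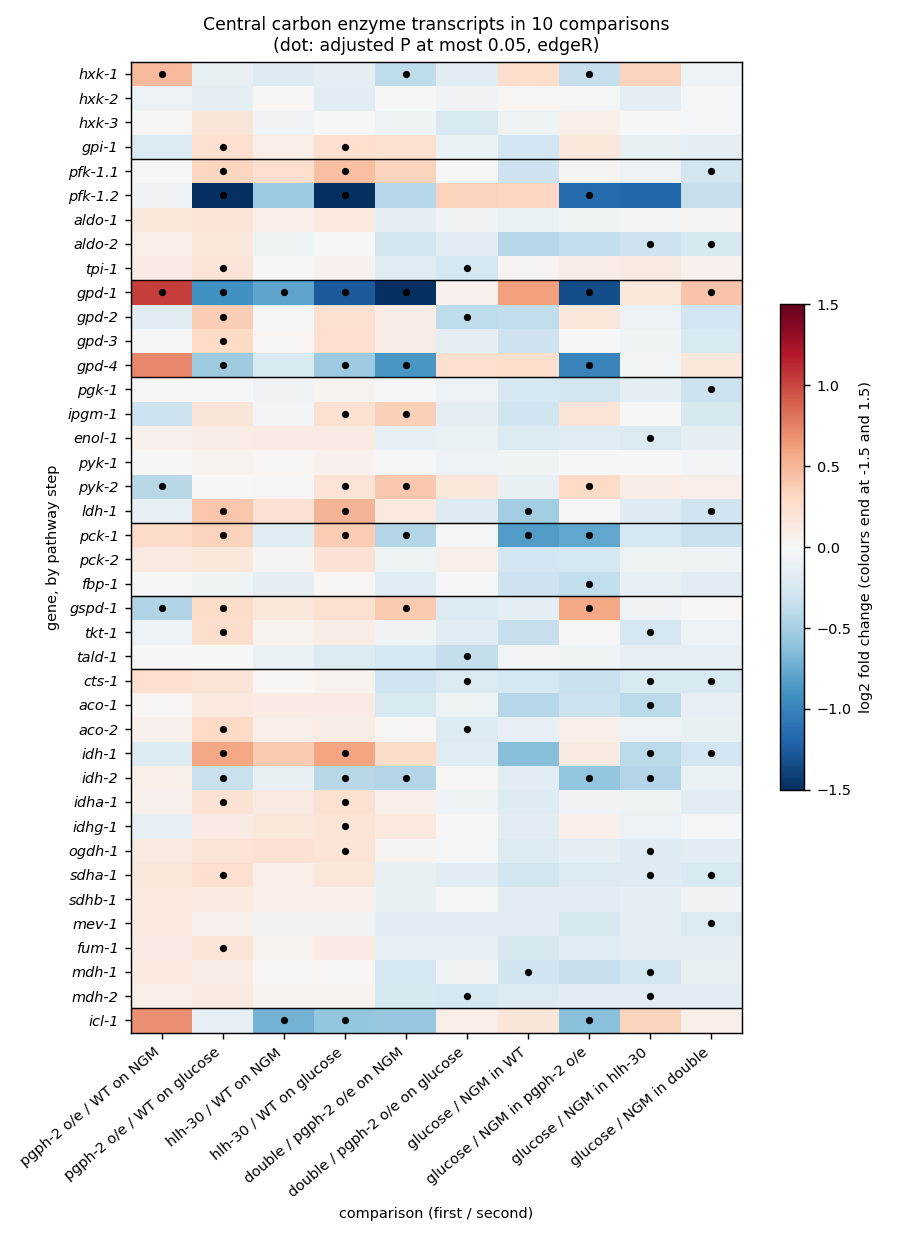
Log2 fold change of the 40 genes (rows, by pathway step) in the 10 comparisons (columns), with colours that end at -1.5 and 1.5, and a dot where the adjusted P was at most 0.05. The strongest colours are those of *gpd-1* and *pfk-1.2*, at -1.67 in the double mutant compared to *pgph-2 o/e* on NGM and -2.07 in *hlh-30* compared to WT on glucose.

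Of the hexokinases, which phosphorylate glucose on entry, *hxk-1* alone passed the test. Its levels on NGM were 49.8, 48.4, 61.1 and 42.7 CPM in WT against 84.6, 74.1, 64.6 and 65.00 CPM in *pgph-2 o/e*, and the libraries did not overlap. It rose in *pgph-2 o/e* (log2 fold change 0.49, SE 0.13, adjusted P = 0.0452, lost in 7 of 8 fits and kept without WT NGM replicate 3, up to 0.138, 0.0881 with library totals). In the double mutant on NGM it was at 55.5, 58.5, 52.8 and 53.5 CPM, all below the *pgph-2 o/e* libraries, and it fell relative to them (log2 fold change -0.39, SE 0.10, adjusted P = 0.0104). On glucose, *pgph-2 o/e* libraries held 55.02, 59.1, 53.4 and 64.3 CPM, and *hxk-1* fell relative to NGM (log2 fold change -0.34, SE 0.11, adjusted P = 0.0279, lost without *pgph-2 o/e* glucose replicate 1, 2 or 3 or *pgph-2 o/e* NGM replicate 2, up to 0.0756). The other hexokinases *hxk-2* and *hxk-3* had group means within 1.11-fold and 1.17-fold. The isomerase *gpi-1*, which interconverts the phosphates of glucose and fructose, rose on glucose in *pgph-2 o/e* (log2 fold change 0.25, SE 0.079, adjusted P = 0.0290, lost without *pgph-2 o/e* glucose replicate 3 or 4 or WT glucose replicate 2 or 4, up to 0.0825, 0.0542 with library totals) relative to WT. It rose in *hlh-30* as well (log2 fold change 0.25, SE 0.073, adjusted P = 0.0218, lost without *hlh-30* glucose replicate 2 or WT glucose replicate 4, up to 0.0635).

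Phosphofructokinase commits sugar to glycolysis, and its genes *pfk-1.1* and *pfk-1.2* moved in opposite directions relative to WT on glucose. In WT on glucose *pfk-1.1* stood at 119.02, 91.6, 107 and 102 CPM, in *pgph-2 o/e* at 128, 133, 136 and 143 CPM and in *hlh-30* at 139, 161, 149 and 142 CPM. Both sets of libraries lay above those of WT (*pgph-2 o/e* log2 fold change 0.32, SE 0.085, adjusted P = 0.0119, and *hlh-30* log2 fold change 0.45, SE 0.088, adjusted P = 0.00460). On NGM *pfk-1.1* was at 117, 129.6, 143 and 131 CPM in WT, next to 176, 110.1, 103 and 127 CPM in *pgph-2 o/e* and 152, 156, 142 and 181 CPM in *hlh-30*, with no call between these genotypes. Double mutant libraries had it at 153, 167, 159 and 172 CPM on NGM and 132, 146, 122 and 137 CPM on glucose. It fell with glucose there (log2 fold change -0.28, SE 0.066, adjusted P = 0.0194, lost without double mutant glucose replicate 1 or 4 or double mutant NGM replicate 4, up to 0.0592).

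The rarer *pfk-1.2* was at 18.5, 27.1, 19.9 and 23.7 CPM in WT on glucose, 5.53, 5.32, 12.5 and 8.42 CPM in *pgph-2 o/e* and 2.22, 6.27, 10.3 and 3.01 CPM in *hlh-30*. All WT libraries lay above all others. It fell in *pgph-2 o/e* (log2 fold change -1.52, SE 0.26, adjusted P = 0.00127) and in *hlh-30* (log2 fold change -2.07, SE 0.44, adjusted P = 0.00627). Within *pgph-2 o/e* the NGM libraries held 10.99, 22.2, 17.3 and 19.3 CPM, and the libraries of the 2 media overlapped, with a call all the same (log2 fold change -1.16, SE 0.29, adjusted P = 0.00948). Sperm genes fell in the same comparisons, as given above, with a median log2 fold change of -2.56 for *pgph-2 o/e* and -3.09 for *hlh-30* relative to WT on glucose and -2.91 for glucose in *pgph-2 o/e*. With the sperm covariate the 3 values of *pfk-1.2* were 0.056 (adjusted P = 0.934), -0.097 (adjusted P = 0.929) and 0.50 (adjusted P = 0.346), so that none passed and 2 changed sign.

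Of the following steps, aldolase *aldo-2*, which splits fructose bisphosphate, fell with glucose in *hlh-30* (log2 fold change -0.31, SE 0.085, adjusted P = 0.0430, lost in 5 of 8 fits and kept without *hlh-30* NGM replicate 4 or *hlh-30* glucose replicate 2 or 3, up to 0.117). It fell too in the double mutant (log2 fold change -0.23, SE 0.052, adjusted P = 0.0130, lost without double mutant glucose replicate 4, up to 0.0511). The covariate gave -0.19 (adjusted P = 0.543) in *hlh-30*. In WT and *pgph-2 o/e* its values were -0.43 (adjusted P = 0.0579) and -0.37 (adjusted P = 0.158). Triose phosphate isomerase *tpi-1* was at 280.5, 275, 279 and 286 CPM in WT on glucose, 325, 325, 316 and 355 CPM in *pgph-2 o/e* and 281, 267, 275 and 279.7 CPM in the double mutant. The *pgph-2 o/e* libraries lay above both others. It rose in *pgph-2 o/e* relative to WT (log2 fold change 0.20, SE 0.055, adjusted P = 0.0152) and fell in the double mutant compared to *pgph-2 o/e* (log2 fold change -0.26, SE 0.057, adjusted P = 0.0130), where library totals gave -0.15 (adjusted P = 0.0740).

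GAPDH oxidizes triose phosphate and makes NADH, and of its genes *gpd-1* passed the test most often. On NGM, *gpd-1* was at 25.7, 18.8, 23.6 and 16.5 CPM in WT, next to 60.98, 36.1, 37.8 and 42.9 CPM in *pgph-2 o/e*, 12.98, 11.8, 14.03 and 11.1 CPM in *hlh-30* and 15.2, 12.04, 14.8 and 13.7 CPM in the double mutant. Every *pgph-2 o/e* library lay above every WT library, and every library of the *hlh-30* and double mutants below them. It rose in *pgph-2 o/e* (log2 fold change 1.04, SE 0.19, adjusted P = 0.00716), and fell in *hlh-30* compared to WT (log2 fold change -0.80, SE 0.15, adjusted P = 0.0112) and in the double mutant compared to *pgph-2 o/e* (log2 fold change -1.67, SE 0.16, adjusted P = 1.31e-05). Over the fits that left out 1 library, the lowest and highest fold changes of the rise in *pgph-2 o/e* were 0.85 and 1.14.

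On glucose the order differed. Levels of *gpd-1* were 23.97, 43.2, 27.2 and 36.6 CPM in WT, next to 17.9, 17.6, 17.8 and 18.3 CPM in *pgph-2 o/e*, 9.76, 15.7, 19.3 and 11.1 CPM in *hlh-30* and 15.8, 17.8, 21.5 and 19.8 CPM in the double mutant. WT libraries lay above all others, while those of the other 3 genotypes overlapped. It fell in *pgph-2 o/e* (log2 fold change -0.91, SE 0.16, adjusted P = 0.00166) and *hlh-30* (log2 fold change -1.26, SE 0.26, adjusted P = 0.00537) relative to WT, and was not called between the double mutant and *pgph-2 o/e* (log2 fold change 0.063, SE 0.11, adjusted P = 0.739). Between media, *gpd-1* fell in *pgph-2 o/e* (log2 fold change -1.33, SE 0.15, adjusted P = 7.68e-05). It rose in the double mutant (log2 fold change 0.43, SE 0.12, adjusted P = 0.0355, lost in 5 of 8 fits and kept without double mutant NGM replicate 1 or double mutant glucose replicate 1 or 2, up to 0.102). Its value in WT was 0.62 (adjusted P = 0.105). With the sperm covariate the values relative to WT on NGM were 0.79 (adjusted P = 1.76e-04) for *pgph-2 o/e* and -0.42 (adjusted P = 0.0803) for *hlh-30*. For the double mutant over *pgph-2 o/e* on NGM the covariate gave -1.13 (adjusted P = 9.74e-06). On glucose it gave -0.059 (adjusted P = 0.915) for *pgph-2 o/e* and -0.20 (adjusted P = 0.780) for *hlh-30* relative to WT, and -0.44 (adjusted P = 0.276) for the change with glucose in *pgph-2 o/e*.

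Its near-copy *gpd-4* was at 46.1, 21.2, 22.9 and 31.1 CPM in *pgph-2 o/e* on NGM, 15.8, 16.04, 16.9 and 16.9 CPM in the double mutant on NGM and 12.6, 14.3, 16.99 and 17.4 CPM in *pgph-2 o/e* on glucose. The NGM libraries of *pgph-2 o/e* lay above the others, replicate 1 most. It fell in the double mutant (log2 fold change -0.88, SE 0.21, adjusted P = 0.00537) and with glucose in *pgph-2 o/e* (log2 fold change -1.002, SE 0.23, adjusted P = 0.00505). The fold changes over the fits that left out 1 library ran from -1.02 to -0.60 and from -1.14 to -0.72. It also fell on glucose in *pgph-2 o/e* (log2 fold change -0.53, SE 0.15, adjusted P = 0.0188, lost without *pgph-2 o/e* glucose replicate 2, up to 0.0536) relative to WT. The fall in *hlh-30* was like it (log2 fold change -0.55, SE 0.16, adjusted P = 0.0222, lost without *hlh-30* glucose replicate 1, 2 or 4, up to 0.0608). The covariate gave 0.15 (adjusted P = 0.777) and 0.36 (adjusted P = 0.612) for these changes from WT, of the opposite sign. For the double mutant on NGM and for glucose in *pgph-2 o/e* it gave -0.42 (adjusted P = 0.0994) and -0.27 (adjusted P = 0.616). The abundant *gpd-2* rose in *pgph-2 o/e* relative to WT on glucose (log2 fold change 0.37, SE 0.12, adjusted P = 0.0345, lost without *pgph-2 o/e* glucose replicate 3 or 4 or WT glucose replicate 2 or 4, up to 0.0957). The same held for *gpd-3* (log2 fold change 0.30, SE 0.098, adjusted P = 0.0329, lost without *pgph-2 o/e* glucose replicate 3 or 4 or WT glucose replicate 2 or 4, up to 0.0939). In the double mutant compared to *pgph-2 o/e* on glucose *gpd-2* fell (log2 fold change -0.38, SE 0.11, adjusted P = 0.0492, lost in 6 of 8 fits and kept without *pgph-2 o/e* glucose replicate 1 or double mutant glucose replicate 2, up to 0.132, 0.0835 with library totals).

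**Figure D5:**
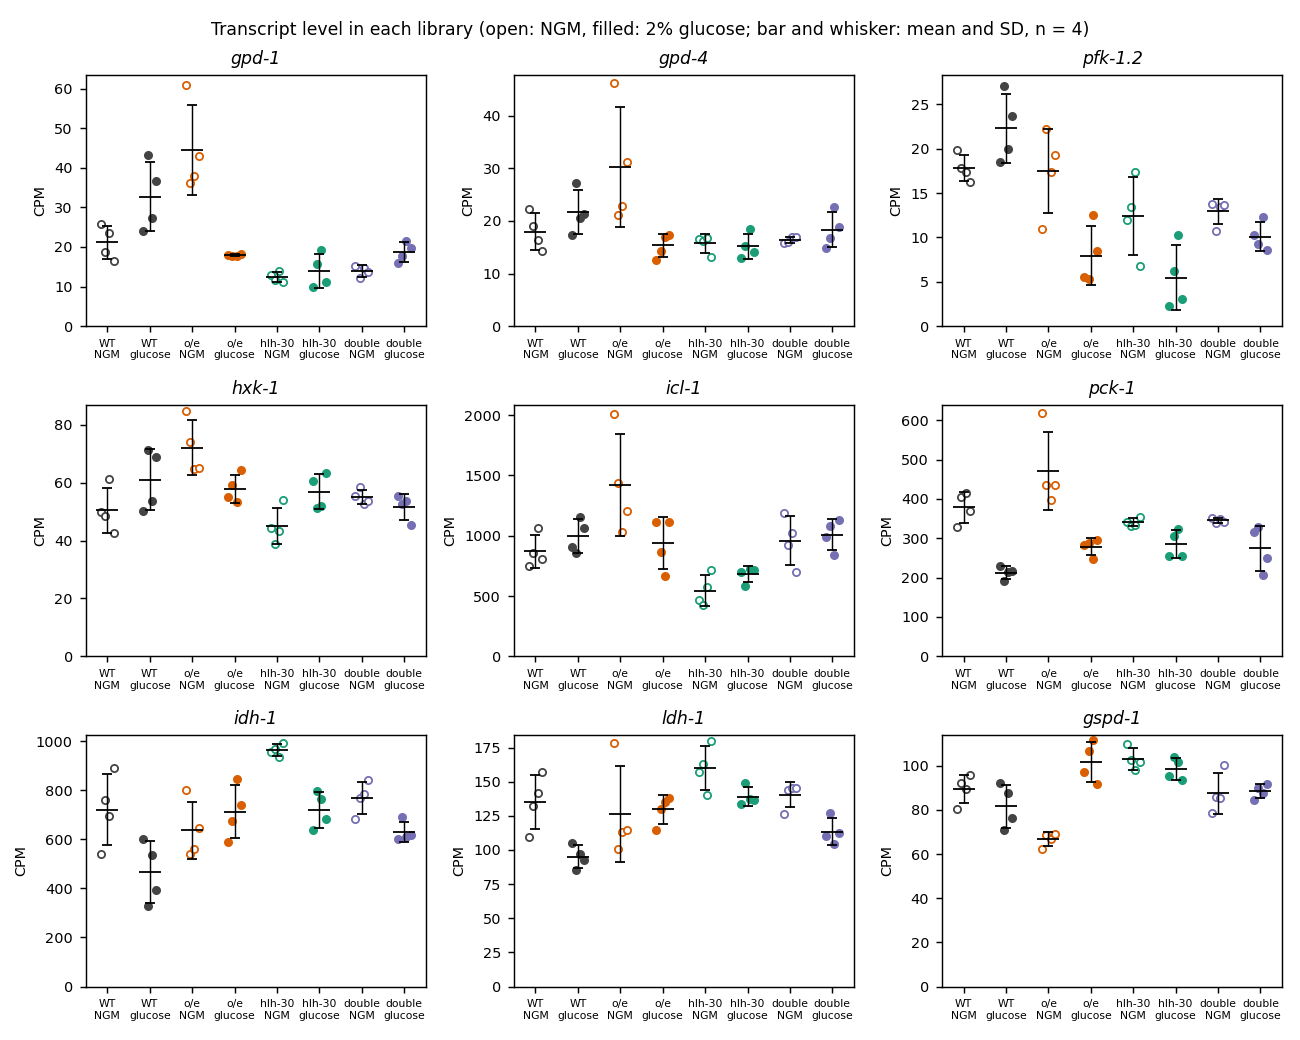
CPM of 9 transcripts in each of the 32 libraries (open circles, NGM, and filled circles, glucose), with the mean and SD of each group of 4. For *gpd-1*, the means are 44.5 CPM in *pgph-2 o/e* on NGM and 17.9 CPM in the same animals on glucose, and the highest single value belongs to *pgph-2 o/e* NGM replicate 1.

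In lower glycolysis, lactate dehydrogenase *ldh-1*, which turns pyruvate into lactate, had the widest range of group means. Its levels were 109, 132, 142 and 157 CPM in WT on NGM and 105, 85.00, 96.99 and 92.9 CPM in WT on glucose, with every glucose library below every NGM library. It fell with glucose in WT (log2 fold change -0.52, SE 0.11, adjusted P = 0.0370, lost in 6 of 8 fits and kept without WT NGM replicate 1 or WT glucose replicate 1, up to 0.127). On glucose, *pgph-2 o/e* held 115, 130.3, 135 and 138 CPM and *hlh-30* 134, 149, 137 and 136 CPM, all above WT, and *ldh-1* rose in both (*pgph-2 o/e* log2 fold change 0.41, SE 0.087, adjusted P = 0.00390, and *hlh-30* log2 fold change 0.51, SE 0.074, adjusted P = 0.00155). The gene fell with glucose in the double mutant (log2 fold change -0.30, SE 0.073, adjusted P = 0.0195, lost without double mutant glucose replicate 1 or 4 or double mutant NGM replicate 3 or 4, up to 0.0642). The change with glucose was 0.0096 in *pgph-2 o/e* (adjusted P = 0.971), and in *hlh-30* -0.19 (adjusted P = 0.135).

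Among the other genes of this stretch, phosphoglycerate kinase *pgk-1*, which makes ATP from bisphosphoglycerate, was at 234, 241, 245 and 236 CPM in the double mutant on NGM and 200.4, 217, 174 and 174 CPM on glucose. The libraries did not overlap and *pgk-1* fell (log2 fold change -0.32, SE 0.073, adjusted P = 0.0159, lost without double mutant glucose replicate 4, up to 0.0600). Phosphoglycerate mutase *ipgm-1* rose in the double mutant compared to *pgph-2 o/e* on NGM (log2 fold change 0.36, SE 0.094, adjusted P = 0.00957). On glucose it rose in *hlh-30* compared to WT (log2 fold change 0.23, SE 0.065, adjusted P = 0.0208, lost without *hlh-30* glucose replicate 2 or WT glucose replicate 4, up to 0.0599). Enolase *enol-1* fell with glucose in *hlh-30* (log2 fold change -0.20, SE 0.054, adjusted P = 0.0390, lost in 6 of 8 fits and kept without *hlh-30* glucose replicate 2 or 3, up to 0.112). Of the pyruvate kinases, which close glycolysis, *pyk-1* was called in no comparison, whereas *pyk-2* fell in *pgph-2 o/e* on NGM (log2 fold change -0.41, SE 0.11, adjusted P = 0.0465, lost in 5 of 8 fits and kept without WT NGM replicate 1 or *pgph-2 o/e* NGM replicate 1 or 2, up to 0.145). It rose in the double mutant compared to *pgph-2 o/e* on NGM (log2 fold change 0.41, SE 0.11, adjusted P = 0.00920). It rose with glucose in *pgph-2 o/e* (log2 fold change 0.30, SE 0.11, adjusted P = 0.0473, lost in 6 of 8 fits and kept without *pgph-2 o/e* NGM replicate 1 or 2, up to 0.130). On glucose it rose in *hlh-30* compared to WT (log2 fold change 0.21, SE 0.071, adjusted P = 0.0398, lost in 6 of 8 fits and kept without WT glucose replicate 1 or 3, up to 0.0968). The sperm covariate gave 0.10 (adjusted P = 0.814) for the rise in *hlh-30*. With library totals the changes of *pyk-2* in these comparisons were -0.44 (adjusted P = 0.180), 0.45 (adjusted P = 0.0541), 0.34 (adjusted P = 0.144) and 0.16 (adjusted P = 0.0759).

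In gluconeogenesis, *pck-1* was the gene whose response to glucose was largest in WT. It encodes 1 of the PEPCK enzymes, which start the path from oxaloacetate back to sugar. WT libraries held 328, 404, 414 and 368 CPM on NGM and 230.0, 190.5, 216 and 216 CPM on glucose, and *pgph-2 o/e* libraries 618, 435, 398 and 434 CPM on NGM and 284, 289, 247 and 296 CPM on glucose. The media did not overlap in either genotype, and *pck-1* fell in both (WT log2 fold change -0.84, SE 0.091, adjusted P = 0.00119, and *pgph-2 o/e* log2 fold change -0.78, SE 0.14, adjusted P = 0.00125).

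In *hlh-30* *pck-1* was at 343, 331, 335 and 355 CPM on NGM and 254, 307, 322 and 256 CPM on glucose. Double mutant libraries held 352, 339.7, 349 and 342 CPM on NGM and 317, 328, 206 and 250.2 CPM on glucose. The glucose libraries again lay below those on NGM, with no call (log2 fold change -0.25, SE 0.084, adjusted P = 0.0824 in *hlh-30*, and log2 fold change -0.33, SE 0.12, adjusted P = 0.0903 in the double mutant). The exact permutation P, without adjustment, was 0.0286 in both. On glucose *pck-1* was higher than in WT in *pgph-2 o/e* (log2 fold change 0.35, SE 0.078, adjusted P = 0.00497) and in *hlh-30* (log2 fold change 0.38, SE 0.099, adjusted P = 0.0135). In the double mutant compared to *pgph-2 o/e* on NGM it fell (log2 fold change -0.44, SE 0.14, adjusted P = 0.0219, lost without double mutant NGM replicate 1, 2, 3 or 4, up to 0.0596).

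The more abundant PEPCK gene *pck-2* was called in no comparison. It stood at 775, 936, 977 and 964 CPM on NGM and 806, 632, 819 and 747 CPM on glucose in WT. Libraries of *pgph-2 o/e* held 1394, 921, 856 and 916 CPM on NGM and 809, 822, 839 and 986 CPM on glucose. In *hlh-30* it was at 953, 952, 936 and 980.0 CPM on NGM and 803, 933, 994 and 855 CPM on glucose. Double mutant libraries held 911, 969, 1025 and 965 CPM on NGM and 987, 933, 832 and 919 CPM on glucose. The libraries of the 2 media overlapped in all 4 genotypes. The gene overlaps *suro-1* on the opposite strand, whose counts came to 10.4% of its own. Fructose bisphosphatase *fbp-1*, which removes a phosphate on the way back to glucose, was at 184, 225, 207 and 197 CPM in WT on NGM and 176, 147, 179 and 160.1 CPM on glucose. Libraries of *pgph-2 o/e* held 254, 200.3, 179 and 195 CPM on NGM and 156, 153, 162 and 181 CPM on glucose. In *hlh-30* *fbp-1* was at 179, 191, 193 and 195 CPM on NGM and 157, 186, 196 and 151 CPM on glucose. Double mutant libraries held 186, 175, 192 and 176 CPM on NGM and 171, 187, 138 and 152 CPM on glucose. The media overlapped in each of these 3 genotypes, and did not in WT. The test called a fall with glucose in *pgph-2 o/e* (log2 fold change -0.37, SE 0.12, adjusted P = 0.0261, lost without *pgph-2 o/e* glucose replicate 1, 2 or 3, up to 0.0828). The changes in WT, *hlh-30* and the double mutant were -0.31, -0.12 and -0.17 (adjusted P = 0.0866, 0.343 and 0.214). The covariate gave -0.19 (adjusted P = 0.594) for the fall in *pgph-2 o/e*. Without the covariate, the interaction of overexpression and glucose was -0.075 (adjusted P = 0.736).

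The oxidative entry to the pentose phosphate pathway, *gspd-1*, moved with overexpression in opposite directions on the 2 media. On NGM it was at 80.6, 92.02, 89.7 and 95.8 CPM in WT against 62.2, 68.5, 66.9 and 69.3 CPM in *pgph-2 o/e*, and on glucose at 92.1, 71.00, 87.5 and 76.1 CPM in WT against 97.2, 107, 112 and 91.6 CPM in *pgph-2 o/e*. On NGM all overexpressing libraries lay below WT, and *gspd-1* fell (log2 fold change -0.45, SE 0.092, adjusted P = 0.0149, lost without WT NGM replicate 2 or 4, up to 0.0628), while library totals gave -0.49 (adjusted P = 0.0587). On glucose the 2 groups overlapped at their edge, and *gspd-1* rose (log2 fold change 0.28, SE 0.10, adjusted P = 0.0497, lost in 6 of 8 fits and kept without WT glucose replicate 1 or *pgph-2 o/e* glucose replicate 4, up to 0.131, 0.112 with library totals). Within *pgph-2 o/e* it rose with glucose (log2 fold change 0.58, SE 0.094, adjusted P = 6.53e-04), the largest rise with glucose of the 40 genes among those called.

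In *hlh-30* *gspd-1* was at 109.7, 103, 98.1 and 102 CPM on NGM and 95.2, 104, 102 and 93.6 CPM on glucose. Double mutant libraries held 78.4, 85.8, 85.6 and 101 CPM on NGM and 84.3, 90.01, 87.6 and 91.6 CPM on glucose. The media overlapped in both. It rose in the double mutant compared to *pgph-2 o/e* on NGM (log2 fold change 0.40, SE 0.096, adjusted P = 0.00582). Transketolase *tkt-1*, of the non-oxidative branch, rose in *pgph-2 o/e* relative to WT on glucose (log2 fold change 0.27, SE 0.094, adjusted P = 0.0426, lost in 5 of 8 fits and kept without WT glucose replicate 1 or 3 or *pgph-2 o/e* glucose replicate 1, up to 0.107, 0.0680 with library totals). The same gene fell with glucose in *hlh-30* (log2 fold change -0.26, SE 0.057, adjusted P = 0.0208, lost without *hlh-30* glucose replicate 1 or 4 or *hlh-30* NGM replicate 2 or 3, up to 0.0743). Transaldolase *tald-1*, which works beside it, was at 290.2, 289.5, 332 and 327 CPM in *pgph-2 o/e* on glucose and 253, 248, 232 and 232 CPM in the double mutant. The libraries did not overlap and *tald-1* fell (log2 fold change -0.36, SE 0.066, adjusted P = 0.00617).

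The 14 genes listed under the TCA cycle include cytosolic counterparts, *aco-1* and *idh-1* among them. With glucose, the fold changes of these genes lay mostly below 0. All 14 were below 0 in WT, *hlh-30* and the double mutant, although with library totals only 12 of 14 were in the double mutant. In *pgph-2 o/e* 11 of 14 were below 0, and 10 with library totals. In *hlh-30*, 8 of 14 fell, where 5.41% of all genes were lower, and the libraries of the 2 media did not overlap for 12 of 14 (20.3% of all genes). The calls of *idh-2*, *ogdh-1*, *sdha-1*, *mdh-1* and *mdh-2* in *hlh-30* were lost in some fits without 1 library. With the sperm covariate, only *idh-2* of these 8 was still called (adjusted P = 0.0291). Of the same 14, 4 fell in the double mutant, 1 in *pgph-2 o/e* and 1 in WT. In the same order 5.13%, 21.5% and 2.42% of all genes were lower. The median log2 fold changes of the 14 were -0.20 in WT, -0.17 in *pgph-2 o/e*, -0.18 in *hlh-30* and -0.15 in the double mutant, and the difference between genotypes was not tested for the 14 as a group.

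Citrate synthase *cts-1*, which brings acetyl units into the cycle, was at 1101, 1208, 1143 and 1246 CPM on NGM and 1051, 889, 1028 and 962 CPM on glucose in WT. Libraries of *pgph-2 o/e* held 1992, 1156, 1185 and 1377 CPM on NGM and 1079, 1118, 1138 and 1266 CPM on glucose. In *hlh-30* it was at 1239, 1211, 1222 and 1234 CPM on NGM and 1013, 1097, 1058 and 1000.4 CPM on glucose. Double mutant libraries held 1127, 1177, 1166 and 1178 CPM on NGM and 984, 1045, 943 and 994 CPM on glucose. The media did not overlap in WT, *hlh-30* and the double mutant. It fell with glucose in *hlh-30* (log2 fold change -0.22, SE 0.041, adjusted P = 0.0105) and the double mutant (log2 fold change -0.23, SE 0.049, adjusted P = 0.0120), while in WT and *pgph-2 o/e* the changes were -0.27 and -0.34 (adjusted P = 0.0758 and 0.156). On glucose it was lower in the double mutant than in *pgph-2 o/e* (log2 fold change -0.22, SE 0.063, adjusted P = 0.0440, lost in 6 of 8 fits and kept without *pgph-2 o/e* glucose replicate 1 or double mutant glucose replicate 2, up to 0.105), and library totals gave -0.11 (adjusted P = 0.154).

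The isocitrate dehydrogenases did not move together. The cytosolic NADP enzyme gene *idh-1* was at 603, 329.6, 536 and 393 CPM in WT on glucose, 591, 676, 847 and 739 CPM in *pgph-2 o/e* and 638, 799, 764 and 684 CPM in *hlh-30*. The *hlh-30* libraries lay above those of WT, and 1 *pgph-2 o/e* library fell within the WT range. It rose relative to WT in *pgph-2 o/e* (log2 fold change 0.58, SE 0.19, adjusted P = 0.0304, lost without *pgph-2 o/e* glucose replicate 3 or 4 or WT glucose replicate 2 or 4, up to 0.0876). It rose also in *hlh-30* (log2 fold change 0.59, SE 0.18, adjusted P = 0.0272, lost without *hlh-30* glucose replicate 2 or WT glucose replicate 4, up to 0.0764). In *hlh-30* on NGM it was at 957, 968, 937 and 993 CPM, and it fell with glucose (log2 fold change -0.41, SE 0.07, adjusted P = 0.00852). The same was so in the double mutant (log2 fold change -0.29, SE 0.071, adjusted P = 0.0219, lost without double mutant glucose replicate 1 or 4 or double mutant NGM replicate 3 or 4, up to 0.0724).

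The mitochondrial NADP enzyme gene *idh-2* was at 91.5, 81.3, 85.6 and 83.4 CPM in WT on glucose, 77.5, 68.4, 67.4 and 65.5 CPM in *pgph-2 o/e* and 61.3, 65.6, 75.7 and 60.3 CPM in *hlh-30*, with every WT library above the others. It fell relative to WT in both (*pgph-2 o/e* log2 fold change -0.33, SE 0.073, adjusted P = 0.00458, and *hlh-30* log2 fold change -0.41, SE 0.087, adjusted P = 0.00602). On NGM, *hlh-30* held 91.3, 96.1, 95.2 and 76.3 CPM, all above its glucose libraries. With glucose *idh-2* fell in *hlh-30* (log2 fold change -0.44, SE 0.097, adjusted P = 0.0211, lost in 6 of 8 fits and kept without *hlh-30* NGM replicate 4 or *hlh-30* glucose replicate 3, up to 0.0665) and in *pgph-2 o/e* (log2 fold change -0.59, SE 0.097, adjusted P = 7.32e-04). It also fell in the double mutant compared to *pgph-2 o/e* on NGM (log2 fold change -0.44, SE 0.092, adjusted P = 0.00261). The sperm covariate gave *idh-2* values of -0.12 (adjusted P = 0.624) for *pgph-2 o/e* and -0.14 (adjusted P = 0.714) for *hlh-30* relative to WT on glucose, and -0.36 (adjusted P = 0.0922) for the change with glucose in *pgph-2 o/e*. The gene overlaps C34F6.9 on the opposite strand, whose counts were 24.1% of its own. Of the NAD-dependent enzyme, the subunit genes *idha-1* and *idhg-1* rose in *hlh-30* compared to WT on glucose (log2 fold change 0.22, SE 0.062, adjusted P = 0.0184, and log2 fold change 0.21, SE 0.053, adjusted P = 0.0123). Relative to WT, in *pgph-2 o/e* on glucose *idha-1* rose too (log2 fold change 0.22, SE 0.07, adjusted P = 0.0297, lost in 5 of 8 fits and kept without WT glucose replicate 1 or *pgph-2 o/e* glucose replicate 1 or 2, up to 0.0742, 0.0573 with library totals). The counts of *mlcd-1*, which overlaps *idhg-1* on the opposite strand, were 11.02% of those of *idhg-1*.

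Cytosolic aconitase *aco-1* was at 634, 627, 643 and 625 CPM in *hlh-30* on NGM and 419, 488, 549 and 434 CPM on glucose, without overlap, and fell (log2 fold change -0.41, SE 0.082, adjusted P = 0.0145). Mitochondrial aconitase *aco-2* rose in *pgph-2 o/e* relative to WT on glucose (log2 fold change 0.29, SE 0.067, adjusted P = 0.00576). It fell in the double mutant compared to *pgph-2 o/e* (log2 fold change -0.21, SE 0.059, adjusted P = 0.0412, lost in 6 of 8 fits and kept without *pgph-2 o/e* glucose replicate 1 or 3, up to 0.0983), where library totals gave -0.096 (adjusted P = 0.166). The oxoglutarate dehydrogenase gene *ogdh-1* fell with glucose in *hlh-30* (log2 fold change -0.19, SE 0.05, adjusted P = 0.0396, lost in 7 of 8 fits and kept without *hlh-30* glucose replicate 3, up to 0.117). On glucose it was higher in *hlh-30* than in WT (log2 fold change 0.20, SE 0.068, adjusted P = 0.0383, lost in 6 of 8 fits and kept without WT glucose replicate 1 or 3, up to 0.0931, 0.0708 with library totals).

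For succinate dehydrogenase, which also feeds the respiratory chain, *sdha-1* rose in *pgph-2 o/e* relative to WT on glucose (log2 fold change 0.25, SE 0.072, adjusted P = 0.0195, lost without WT glucose replicate 4, up to 0.0570). With glucose it fell in *hlh-30* (log2 fold change -0.19, SE 0.047, adjusted P = 0.0314, lost in 6 of 8 fits and kept without *hlh-30* glucose replicate 2 or 3, up to 0.0995). It fell likewise in the double mutant (log2 fold change -0.23, SE 0.063, adjusted P = 0.0319, lost in 7 of 8 fits and kept without double mutant glucose replicate 2, up to 0.0944). The cytochrome b subunit gene *mev-1* fell with glucose in the double mutant (log2 fold change -0.22, SE 0.061, adjusted P = 0.0401, lost in 7 of 8 fits and kept without double mutant glucose replicate 2, up to 0.118). It overlaps *ced-9* on the same strand, whose counts were 14.99% of its own. Library totals gave -0.17 (adjusted P = 0.0680) for *sdha-1* and -0.15 (adjusted P = 0.0857) for *mev-1* in the double mutant. Fumarase *fum-1* rose in *pgph-2 o/e* relative to WT on glucose (log2 fold change 0.20, SE 0.069, adjusted P = 0.0446, lost in 6 of 8 fits and kept without WT glucose replicate 1 or *pgph-2 o/e* glucose replicate 1, up to 0.104, 0.0706 with library totals).

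Of the malate dehydrogenase genes, *mdh-1* was at 476, 523, 545 and 562 CPM in WT on NGM and 439.8, 398, 450.1 and 428 CPM on glucose, without overlap. It fell with glucose in WT (log2 fold change -0.30, SE 0.071, adjusted P = 0.0489, lost in 7 of 8 fits and kept without WT NGM replicate 1, up to 0.150). It fell too in *hlh-30* (log2 fold change -0.27, SE 0.058, adjusted P = 0.0188, lost without *hlh-30* glucose replicate 1 or 4 or *hlh-30* NGM replicate 2 or 3, up to 0.0620). The gene *mdh-2* was at 684, 704, 694 and 773 CPM in *pgph-2 o/e* on glucose and 602, 629, 573 and 569 CPM in the double mutant, again without overlap. It fell in the double mutant (log2 fold change -0.27, SE 0.061, adjusted P = 0.0163, lost without double mutant glucose replicate 4, up to 0.0579). With glucose it fell in *hlh-30* (log2 fold change -0.18, SE 0.038, adjusted P = 0.0200, lost without *hlh-30* glucose replicate 1 or 4 or *hlh-30* NGM replicate 1 or 2, up to 0.0786).

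The glyoxylate shunt gene *icl-1* was lower in *hlh-30* than in WT on both media. On NGM it was at 753, 860.1, 1064 and 807 CPM in WT, next to 2007, 1442, 1034 and 1207 CPM in *pgph-2 o/e*, 464, 426, 576 and 713 CPM in *hlh-30* and 1186, 922, 1027 and 703 CPM in the double mutant. The *hlh-30* libraries lay below those of WT and *icl-1* fell (log2 fold change -0.71, SE 0.17, adjusted P = 0.0238, lost without *hlh-30* NGM replicate 1 or 2 or WT NGM replicate 2 or 3, up to 0.0651). In *pgph-2 o/e* the value relative to WT was 0.68 (adjusted P = 0.0731), and in the double mutant relative to *pgph-2 o/e* -0.57 (adjusted P = 0.0547). On glucose it was at 911, 854, 1158 and 1062 CPM in WT, next to 1113, 864, 667 and 1117 CPM in *pgph-2 o/e*, 703, 583, 724 and 716 CPM in *hlh-30* and 993, 1077, 837 and 1130.3 CPM in the double mutant. The *hlh-30* libraries again lay below WT (log2 fold change -0.58, SE 0.11, adjusted P = 0.00426), whereas the double mutant and *pgph-2 o/e* overlapped (log2 fold change 0.10, SE 0.15, adjusted P = 0.694). Between media, *icl-1* fell in *pgph-2 o/e* (log2 fold change -0.62, SE 0.22, adjusted P = 0.0468, lost in 7 of 8 fits and kept without *pgph-2 o/e* NGM replicate 3, up to 0.120), with values of 0.19, 0.34 and 0.076 in WT, *hlh-30* and the double mutant (adjusted P = 0.384, 0.175 and 0.770). With the sperm covariate the fall in *hlh-30* was -0.80 (adjusted P = 0.0105) on NGM and -0.81 (adjusted P = 0.231) on glucose.

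Whether glucose acted differently with overexpression was tested by an interaction, the change with glucose in *pgph-2 o/e* minus that in WT. Its log2 fold changes are differences of log2 fold changes. It was fitted again without each replicate number in turn, left out of all 4 groups, and without *pgph-2 o/e* NGM replicate 1. It was above 0 for 5 called genes and below 0 for 6, with 33.8% of all genes called (14.2% above, 19.6% below 0). The largest was *gpd-1* (log2 fold change -1.96, SE 0.27, adjusted P = 4.98e-05), whose change with glucose was 0.62 in WT against -1.33 in *pgph-2 o/e*. It was followed by *pfk-1.2* (log2 fold change -1.48, SE 0.34, adjusted P = 0.00272, lost without replicate 2, up to 0.0527) and *gpd-4* (log2 fold change -1.27, SE 0.31, adjusted P = 0.00384) in the same direction. Those of the other sign were led by *idh-1* (log2 fold change 0.77, SE 0.26, adjusted P = 0.0318, lost without replicate 2, 3 or 4, up to 0.248) and *gspd-1* (log2 fold change 0.72, SE 0.13, adjusted P = 4.67e-04). The count was 4 without replicate 4, 5 without replicate 2, 6 without replicate 3, 18 without *pgph-2 o/e* NGM replicate 1 and 30 without replicate 1. The balance of signs turned in 2 of these fits, to 13 above and 5 below 0 without *pgph-2 o/e* NGM replicate 1 and 24 and 6 without replicate 1. Library totals gave 10 above and 6 below 0, and the sperm covariate left 1. With the covariate this interaction was -0.85 (adjusted P = 0.109) for *gpd-1*, 0.58 (adjusted P = 0.431) for *pfk-1.2* and -0.36 (adjusted P = 0.632) for *gpd-4*. The same contrast for *hlh-30* called 1 gene of 40 (1.45% of all genes, 0.832% above 0), *pck-1* (log2 fold change 0.56, SE 0.12, adjusted P = 0.0368), so its fall with glucose was smaller in *hlh-30* (-0.25) than in WT (-0.84). The call was lost in all 4 fits that left out a replicate number (adjusted P up to 0.320), of which that without replicate 3 called 1 other gene, below 0. For this contrast there were 4 above and 3 below 0 at an unadjusted P under 0.05 in edgeR, and DESeq2 called 2.

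The interaction of overexpression with *hlh-30* asked whether the effect of *pgph-2 o/e* differed without *hlh-30*, as the difference between the double mutant and *hlh-30* minus the difference of *pgph-2 o/e* from WT. The *pgph-2* level differed between the double mutant and *pgph-2 o/e*, and on glucose also between *hlh-30* and WT, as given above. That level therefore cannot be told apart from loss of *hlh-30* in this contrast either. On NGM, 2 genes were called (3.95% of all genes, 2.27% above and 1.67% below 0). One was *gpd-1*, below 0 (log2 fold change -0.85, SE 0.23, adjusted P = 0.0486, lost in 4 of 5 fits and kept without replicate 1, up to 0.184, 0.0505 with library totals). The other was *ipgm-1*, above 0 (log2 fold change 0.42, SE 0.11, adjusted P = 0.0438, lost without replicate 2, 3 or 4, up to 0.346). The count was 0 without replicate 2, 3 or 4, 1 without *pgph-2 o/e* NGM replicate 1 and 4 without replicate 1, with 4, 3 and 4 at an unadjusted P under 0.05 in the 3 edgeR fits that called none. DESeq2 called 2 of the 40 with all libraries, and library totals gave 1 and 0. On glucose, 5 genes lay above 0 and 12 below (21.2% and 17.3% of all genes). Those above were *pfk-1.2* (log2 fold change 2.45, SE 0.54, adjusted P = 0.00227), *gpd-1* (log2 fold change 1.37, SE 0.29, adjusted P = 0.00174), *gpd-4*, *icl-1* and *idh-2*. Those below were led by *idh-1* (log2 fold change -0.74, SE 0.22, adjusted P = 0.0160, lost without replicate 2 or 4, up to 0.113), *ldh-1* (log2 fold change -0.67, SE 0.11, adjusted P = 4.67e-04) and *gpd-2* (log2 fold change -0.58, SE 0.18, adjusted P = 0.0166, lost without replicate 4, up to 0.145). Library totals shifted this contrast by a median of 0.12 and gave 6 above and 5 below 0, and the count was 6 without replicate 4 and 9 without replicate 2. With the sperm covariate 0 were called (7 at an unadjusted P under 0.05 in edgeR, with 21 in DESeq2 without the covariate), with -0.20 (adjusted P = 0.889) for *pfk-1.2* and -0.082 (adjusted P = 0.948) for *gpd-1*.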

How the data were processed

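RNA was sequenced from 32 whole-animal samples, 4 in each of 8 groups taken from the labels. The deposited table holds raw whole-number counts for each gene, from read pairs that the authors had aligned with Hisat2. The submitters' processing notes name featureCounts 1.5.0-p3 and the WBcel235 build. Strand and multi-mapping settings are not given in the sources used here. Symbols came from a RefSeq table (45305 of 46589 IDs matched). Levels are CPM with TMM factors, or FPKM, computed here with gene lengths from the same deposited table.

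Each comparison was fitted to its own groups with edgeR 4.0.16 (R 4.3.3), by the quasi-likelihood test. Genes were kept by filterByExpr (min.count 10, min.total.count 15), and the prior count was 2. Interactions used 4 groups. P-values were adjusted over all genes tested, and a gene was called at an adjusted P of at most 0.05. The steps were tested on simulated data. Genes named were, in each comparison, up to 3 called members with the largest change and no overlap between groups, and *pck-1*, *pck-2*, *fbp-1*, *pfk-1.1*, *gspd-1*, *cts-1* and *icl-1* throughout. Other called members are given for completeness and were chosen after their values were seen. The members, the list of 27 other pathway genes (25 matched) and the marker lists (sperm 51, oocyte and embryo 21, intestine 8, body wall muscle 8, hypodermis 8, pharynx 5 and neurons 7 genes) were chosen with earlier results of these data known. Alternatives were DESeq2 1.42.0, its size factors, library totals, no filter, at least 10 counts in every library, a replicate block, all 32 libraries in one fit, the same with a sperm gene covariate, and each library or replicate number left out (98 fits). Library totals, and leaving 1 library out of 2 interactions, were chosen after seeing the data.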

Additional observations from a re-analysis of the deposited data

Results flagged for a closer look

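In 10 of 160 sets of 4 libraries, made of 20 genes in 8 groups, 1 library lay farther from the other 3 than Dixon's test allows at the 95% level, which chance does in about 1 of 20 sets. In *pgph-2 o/e* NGM replicate 1 the values were *pck-1* (618 CPM, nearest other 435 CPM), *pck-2* (1394 CPM, nearest other 921 CPM), *pgk-1* (343 CPM, nearest other 219 CPM) and *tald-1* (453 CPM, nearest other 292 CPM). The others were *gpd-4* in *hlh-30* on NGM replicate 4 (13.1 CPM, nearest other 16.3 CPM), *icl-1* in *hlh-30* on glucose replicate 2 (583 CPM, nearest other 703 CPM), *ldh-1* in the double mutant on NGM replicate 1 (127 CPM, nearest other 144 CPM), *mdh-2* in WT on glucose replicate 2 (588 CPM, nearest other 645 CPM), *pck-2* in *pgph-2 o/e* on glucose replicate 4 (986 CPM, nearest other 839 CPM) and *pfk-1.2* in the double mutant on NGM replicate 2 (10.8 CPM, nearest other 13.4 CPM).

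In 31 cases the effect of 1 condition differed between groups by an interaction test in edgeR, at an adjusted P of at most 0.05. In the order given below, 11, 1, 2 and 17 of the 40 genes were called. That was 27.5%, 2.5%, 5% and 42.5%, against 33.8%, 1.45%, 3.95% and 38.5% of all genes. Values are differences of log2 fold changes. The change with glucose in *pgph-2 o/e* minus that in WT was *gpd-1* (-1.96), *pfk-1.2* (-1.48), *gpd-4* (-1.27), *icl-1* (-0.82), *hxk-1* (-0.61), *idh-2* (-0.44), *pyk-2* (0.41), *gpi-1* (0.45), *ipgm-1* (0.50), *gspd-1* (0.72) and *idh-1* (0.77). In *hlh-30* minus WT it was *pck-1* (0.56). The effect of overexpression without *hlh-30* minus that with *hlh-30* was *gpd-1* (-0.85) and *ipgm-1* (0.42) on NGM. On glucose it was *idh-1* (-0.74), *ldh-1* (-0.67), *gpd-2* (-0.58), *pfk-1.1* (-0.43), *gspd-1* (-0.40), *ipgm-1* (-0.32), *gpi-1* (-0.31), *sdha-1* (-0.29), *tpi-1* (-0.29), *mdh-2* (-0.28), *aco-2* (-0.28), *idha-1* (-0.26), *idh-2* (0.47), *icl-1* (0.72), *gpd-4* (0.84), *gpd-1* (1.37) and *pfk-1.2* (2.45). Library totals ended the calls of *pyk-2* for overexpression by glucose (adjusted P = 0.135) and *gpd-1* for overexpression by *hlh-30* on NGM (adjusted P = 0.0505). For overexpression by *hlh-30* on glucose they ended those of *gpi-1*, *tpi-1*, *ipgm-1*, *gspd-1*, *aco-2*, *idha-1* and *sdha-1* (adjusted P from 0.0544 to 0.135). The sperm covariate kept only *gspd-1* for overexpression by glucose and *gpd-1* and *ipgm-1* on NGM.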

How the results depend on the processing

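Of 117 named log2 fold changes that passed the test, each kept its sign under every alternative but the sperm covariate. There, *pfk-1.2* went to 0.056 for *pgph-2 o/e* against WT on glucose, 0.50 for glucose in *pgph-2 o/e*, 0.58 for overexpression by glucose and -0.20 for overexpression by *hlh-30* on glucose. It also turned *gpd-4* to 0.15 and 0.36 for *pgph-2 o/e* and *hlh-30* against WT on glucose and to -0.38 for overexpression by *hlh-30* on glucose, and *gpd-1* to -0.082 in the last. The covariate follows the groups. The calls kept were 113 with DESeq2, 113 with its size factors, 90 with library totals, 103 without a filter, 105 with at least 10 counts in every library, 86 with all 32 libraries in one fit and 21 with the covariate. Over the fits that left out 1 library or 1 replicate number, 567 of 825 values stayed past the threshold.

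Counts of called genes moved by over 1.5 times as follows, with the interactions named by their factors. DESeq2 called 7 for *pgph-2 o/e* against WT on NGM, 4 for *hlh-30* against WT on NGM, 14 for glucose in WT, 15 for glucose in the double mutant and 2 for *hlh-30* by glucose, and its size factors in edgeR 1 for overexpression by *hlh-30* on NGM. Library totals gave 4 for *hlh-30* against WT on NGM, 1 for overexpression by *hlh-30* on NGM and 11 for overexpression by *hlh-30* on glucose. Without a filter the count was 7 for glucose in *hlh-30*, 0 (5 at an unadjusted P under 0.05) for *hlh-30* by glucose and 1 for overexpression by *hlh-30* on NGM, and with at least 10 counts in every library 2 for *pgph-2 o/e* against WT on NGM. All 32 libraries in one fit called 7 for *pgph-2 o/e* against WT on NGM, 14 for the double mutant against *pgph-2 o/e* on NGM, 0 (7 at an unadjusted P under 0.05) for the double mutant against *pgph-2 o/e* on glucose, 9 for glucose in WT, 17 for glucose in *pgph-2 o/e*, 6 for glucose in *hlh-30*, 0 (10 at an unadjusted P under 0.05) for glucose in the double mutant and 0 (4 at an unadjusted P under 0.05) for *hlh-30* by glucose. The sperm covariate called 8 for *pgph-2 o/e* against WT on NGM, 0 (11 at an unadjusted P under 0.05) for *pgph-2 o/e* against WT on glucose, 1 for *hlh-30* against WT on NGM, 0 (7 at an unadjusted P under 0.05) for *hlh-30* against WT on glucose, 1 for the double mutant against *pgph-2 o/e* on glucose, 10 for glucose in WT, 2 for glucose in *pgph-2 o/e*, 2 for glucose in *hlh-30*, 0 (11 at an unadjusted P under 0.05) for glucose in the double mutant, 1 for overexpression by glucose, 0 (1 at an unadjusted P under 0.05) for *hlh-30* by glucose and 0 (7 at an unadjusted P under 0.05) for overexpression by *hlh-30* on glucose. Where these edgeR fits called none, DESeq2 without them called 16 for *pgph-2 o/e* against WT on glucose, 13 for *hlh-30* against WT on glucose, 7 for the double mutant against *pgph-2 o/e* on glucose, 15 for glucose in the double mutant, 2 for *hlh-30* by glucose and 21 for overexpression by *hlh-30* on glucose. Over the fits that left out libraries, the counts ran from 1 to 5 for *pgph-2 o/e* against WT on NGM, 9 to 23 for *pgph-2 o/e* against WT on glucose, 1 to 3 for *hlh-30* against WT on NGM, 9 to 18 for *hlh-30* against WT on glucose, 7 to 21 for the double mutant against *pgph-2 o/e* on NGM, 2 to 7 for the double mutant against *pgph-2 o/e* on glucose, 1 to 18 for glucose in WT, 6 to 17 for glucose in *pgph-2 o/e*, 3 to 14 for glucose in *hlh-30*, 1 to 18 for glucose in the double mutant, 4 to 30 for overexpression by glucose, 0 to 1 for *hlh-30* by glucose, 0 to 4 for overexpression by *hlh-30* on NGM and 6 to 22 for overexpression by *hlh-30* on glucose.

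Replicate numbers recur in every group, but they did not pair the libraries: correlations of same-numbered deviations ran from -0.41 to 0.50, and in no comparison did every one exceed 0.1. With the replicate number as a block, 93 of the 117 calls were kept, and the counts that moved were 2 for *pgph-2 o/e* against WT on NGM, 4 for *hlh-30* against WT on NGM, 3 for the double mutant against *pgph-2 o/e* on glucose, 1 for glucose in WT, 0 (6 at an unadjusted P under 0.05) for *hlh-30* by glucose and 1 for overexpression by *hlh-30* on NGM. A depth of 16750042 to 29794842 counts per library set little limit on these genes, of which *pfk-1.2* was the rarest. The strand setting and the treatment of reads that map to several places are not given in the sources used here, which leaves the single GAPDH copies and the overlapping genes uncertain. The alternatives with library totals and without *pgph-2 o/e* NGM replicate 1 in the interactions were chosen after seeing the data.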

Other observations

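Genes of the same pathways outside the 40 were read as counts from a list of 27, of which 25 were matched by name. Relative to WT, in *pgph-2 o/e* 1 of 25 fell on NGM, and 2 rose and 3 fell on glucose. The shares called were 4% and 20%, against 6.9% and 41.5% of all genes. In *hlh-30* compared to WT, 3 fell on NGM, and 1 rose and 4 fell on glucose (12% and 20%, against 15.2% and 45.1% of all genes). In the double mutant compared to *pgph-2 o/e*, 2 rose and 3 fell on NGM, and 1 rose and 4 fell on glucose. That was 20% on either medium, against 42.4% of all genes on NGM and 13.2% on glucose. With glucose, 2 of 25 fell in WT, 3 in *pgph-2 o/e*, 5 in *hlh-30* and 8 in the double mutant, and 2 rose in *pgph-2 o/e*. The shares called were 8%, 20%, 20% and 32% in the same order, against 3.61%, 38.8%, 13% and 11.2% of all genes.

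The genes of this list named here were chosen after their values were seen. Fits that left out a library, or used library totals or the covariate, were not read for them. The further PEPCK gene *pck-3* was at 20.5, 33.6, 21.1 and 28.9 CPM in WT on glucose, 2.91, 4.11, 8.18 and 8.42 CPM in *pgph-2 o/e* and 1.81, 3.75, 7.97 and 1.08 CPM in *hlh-30*, with every WT library above the others. It fell in *pgph-2 o/e* (log2 fold change -2.16, SE 0.32, adjusted P = 5.42e-04) and *hlh-30* (log2 fold change -2.86, SE 0.53, adjusted P = 0.00390) by the quasi-likelihood test of edgeR, adjusted after Benjamini and Hochberg, in comparisons in which 47 and 46 of the 51 sperm genes fell. Their part in the values of *pck-3* was not tested. The mitochondrial pyruvate carrier gene *mpc-1* was at 87.1, 106, 96.6 and 106 CPM in WT on NGM and 63.1, 54.7, 63.1 and 57.6 CPM on glucose, without overlap. With glucose it fell in WT (log2 fold change -0.74, SE 0.086, adjusted P = 0.00172), *hlh-30* (log2 fold change -0.68, SE 0.10, adjusted P = 0.00511) and the double mutant (log2 fold change -0.62, SE 0.13, adjusted P = 0.0120), and in *pgph-2 o/e* its value was -0.29 (adjusted P = 0.0697).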
